A study of Mus musculus with 12 samples.

Results

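Mitophagy is the removal of mitochondria by autophagy, and this report describes the RNA of Bnip3 and 9 other genes that mark mitochondria for it or start it, after 6 h of the synthetic glucocorticoid dexamethasone. The 10 genes are Bnip3, Bnip3l, Pink1, Fundc1, Bcl2l13, Fkbp8, Phb2, Optn, Sqstm1 and Ulk1. A gene was measured by a probe set that the array's annotation gives to exactly 1 gene symbol, which held for 8 of the 10 genes, of 30142 genes named that way in all. The probe set of Pink1 carries several symbols and Optn is not listed in that annotation, so neither has a value here. Where a gene had several probe sets the one with the highest mean over all 12 arrays was to be taken, and each of the 8 genes had 1. Bnip3 heads the group because its rise in these arrays was already known, so its change is described without a test. The genes were thus chosen by the measured dexamethasone minus vehicle change of Bnip3 and by the known roles of the others, whose values in an earlier look at these arrays were also at hand.

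The cells were megakaryocytes, which shed platelets, grown in culture from hematopoietic stem cells of male C57BL/6 mice. They received thrombopoietin at 100 ng/ml for 3 days, then a night in medium with 10% charcoal-stripped serum, which is low in steroid hormones, and were purified on an albumin gradient. Each of 6 cultures was divided between 100 nM dexamethasone and its vehicle for 6 h, which gave 6 arrays per treatment, paired by culture. Culture 1 to 6 below is the replicate number of the labels, which do not say whether each culture came from separate mice.

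In receptor-driven mitophagy, proteins in the mitochondrial outer membrane bind the LC3 and GABARAP proteins on the growing autophagosome directly. BNIP3 and its relative NIX, the product of Bnip3l, work in this way, and NIX is known for clearing mitochondria from maturing red blood cells. In the other route the kinase PINK1 and the ligase Parkin coat damaged mitochondria with ubiquitin, which adaptors such as p62 and optineurin then join to LC3. Bnip3 is a known target of the hypoxia-inducible factor HIF1 and, in muscle, of FOXO3.

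The sequences just before the gene starts are shown for Bnip3, Fkbp8 and Sqstm1, which are the genes with the largest difference and with weaker calls in each direction. RefSeq's promoter table for GRCm38.p6 had an entry for 9 of the 10 genes, Bnip3l being the one without. Each is the 250 bases before the start, 5′ to 3′ on the gene's strand, at chr7:138909507-138909756 (minus strand) for Bnip3, chr8:70527493-70527742 (plus strand) for Fkbp8 and chr11:50210821-50211070 (minus strand) for Sqstm1. Capitals mark matches, on either strand, to the motifs searched. They are the hypoxia response core in the forms ACGTG and also GCGTG, and the E-box, which is spelled CACGTG and contains the former. The forkhead core was searched as TAAACA, the single glucocorticoid site as AGAACA, and the full glucocorticoid site as that site followed, after any 3 bases, by its mirror TGTTCT.
Bnip3: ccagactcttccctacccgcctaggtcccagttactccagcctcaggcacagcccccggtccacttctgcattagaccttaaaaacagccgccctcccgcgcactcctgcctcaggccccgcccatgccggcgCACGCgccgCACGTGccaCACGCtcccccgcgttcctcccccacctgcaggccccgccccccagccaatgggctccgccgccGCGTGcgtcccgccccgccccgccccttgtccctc
Fkbp8: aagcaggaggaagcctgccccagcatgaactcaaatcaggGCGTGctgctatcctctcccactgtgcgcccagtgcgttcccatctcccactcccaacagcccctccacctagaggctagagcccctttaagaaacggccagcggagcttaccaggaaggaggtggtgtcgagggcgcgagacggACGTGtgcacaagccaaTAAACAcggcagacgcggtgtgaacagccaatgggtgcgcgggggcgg
Sqstm1: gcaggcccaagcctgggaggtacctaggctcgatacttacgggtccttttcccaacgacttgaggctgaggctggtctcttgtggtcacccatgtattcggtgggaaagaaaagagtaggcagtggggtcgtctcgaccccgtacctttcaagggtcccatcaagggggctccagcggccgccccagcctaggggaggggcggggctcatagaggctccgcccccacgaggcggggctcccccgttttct

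The Bnip3 stretch held 2 matches to ACGTG, which begin 108 and 107 bases before the start and overlap each other in 1 E-box. It also held 3 matches to GCGTG, at 117, 99 and 35 bases before the start. Among 32851 promoters of the same length, 16.6% held ACGTG, 28.2% held GCGTG and 6.02% held the E-box. The Fkbp8 stretch held 1 match to each form of the hypoxia core, at 65 and 210 bases before the start, and 1 to the forkhead core at 48 bases, and the Sqstm1 stretch held none of the motifs. In genes not shown, ACGTG lay at 198 bases in Phb2, and GCGTG at 145 in Bcl2l13, 32 in Ulk1 and 47 in Pink1. Optn held GCGTG at 23 and 8 bases and AGAACA at 168, and Fundc1 held none of the motifs. Hypoxia cores were thus also found in genes that did not pass the threshold. TAAACA occurred in 12.0% of promoters, AGAACA in 16.1% and the full glucocorticoid site in 0.00913%. Neither glucocorticoid motif was found in the 3 stretches shown, which says only that those letters are not in these windows. The base composition differs too, since the Bnip3 stretch was 72.4% G or C against a median of 52.4%.

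Values below are the deposited log2 values, so that a difference of 1 is a doubling on the deposited scale. As a reference for dim signal, 5222 negative control probe sets had medians from 6.15 to 6.39 per array and 95th percentiles from 9.98 to 10.39. The control median below means that of the same array. The array medians lay between 5.57 and 5.67. The number of arrays limits the precision. All adjusted p-values are from limma with culture as a block, adjusted by Benjamini-Hochberg over the 24265 genes tested, and a gene was called at an adjusted p under 0.05. In these whole-culture samples, fewer cells of a type and less RNA per cell cannot be told apart.

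All 12 measured megakaryocyte markers lay above the control median on all 12 arrays, with Pf4, Itgb3 and Gp9 among them. Of these, 3 were called higher and 1, Tubb1, lower. Over all tested genes 7.39% were called higher and 4.56% lower, which also applies to the marker counts that follow. Of 8 erythroid markers, which matter here because NIX acts in that lineage, 5 lay below that median on all 12 arrays, among them Klf1, Slc4a1 and Rhag, and 2 above it, Epor and Tfrc. The mean of the 8 ran from 6.69 to 6.82 over vehicle arrays and from 6.62 to 6.67 over dexamethasone arrays, lower in 6 of 6 cultures, and Tfrc, the transferrin receptor, fell by 0.65.

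Genes used as markers of other blood lineages were also measured, without a check that each is restricted to its lineage. Of 12 neutrophil markers 3 lay above the control median on all 12 arrays (S100a8, S100a9 and Camp) and 3 below it (Elane, Retnlg and Cebpe). Their mean ran from 6.60 to 7.44 in vehicle and from 6.18 to 7.17 in dexamethasone, lower in 6 of 6 cultures. S100a8, S100a9, Camp and Ltf were called lower, where 1 neutrophil marker was called without the replicate block, 2 with it as a random effect, 2 without culture 1, 3 or 4, and 1 without cultures 2 and 3. Of 12 monocyte and macrophage markers 4 lay above the control median on all arrays (Lyz2, Cd68, Cx3cr1 and Ly6c2) and 6 below it, with Csf1r and Cd14 among the latter. Their mean ran from 6.93 to 7.11 and from 6.78 to 7.10, lower in 6 of 6 cultures, and Ccr2 fell by 0.42. Of these 12 markers 1 was called lower and 0 higher. Of 10 mast cell and basophil markers 3 lay above it on all arrays (Cpa3, Kit and Gata2) and 5 below it, with Fcer1a among the latter. Their mean ran from 6.13 to 6.30 and from 6.26 to 6.41, higher in 6 of 6 cultures, with 3 called higher and 1 lower, or 2 and 0 without the replicate block. Their part in the results below was not tested.

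Bnip3, the outer membrane receptor of mitophagy, was 10.4-fold higher in dexamethasone. The 6 vehicle arrays read 7.18, 7.15, 7.33, 7.53, 7.29 and 7.19 for cultures 1 to 6, and the 6 dexamethasone arrays read 10.89, 10.70, 10.85, 10.67, 10.56 and 10.31. Every vehicle value lay above the control median but below the 95th percentile of those controls on its array, whereas 5 of 6 dexamethasone values lay above the latter, and the groups were far apart. The mean went from 7.28 ± 0.14 to 10.66 ± 0.21 (SD, n = 6), a difference of 3.38 with an SE of 0.08. By culture the difference ran from 3.12 in culture 6 to 3.71 in culture 1. It was the 6th largest rise among 24265 genes, and between 3.31 and 3.44 under 18 other settings of the analysis.

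Bnip3l, which encodes NIX, rose as well, by 0.46 with an SE of 0.04, a 1.37-fold change (adjusted p = 0.000217). Its vehicle values were 14.03, 14.04, 14.13, 13.96, 13.96 and 13.98, and its dexamethasone values 14.41, 14.60, 14.59, 14.42, 14.43 and 14.38. The lowest dexamethasone array was above the highest vehicle array, and the rise of 0.38 to 0.56 was seen in 6 of 6 cultures. It ranked 518th among all changes from the highest, and its call held under each of 18 other settings, with adjusted p from 1.18e-05 to 0.00684. The probe set also carries the gene number of a pseudogene copy, Bnip3l-ps, and the share of its signal from that copy was not tested. Of the 7 measured genes beside Bnip3, it alone had groups that did not overlap, which held for 6.73% of all tested genes.

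**Figure D1:**
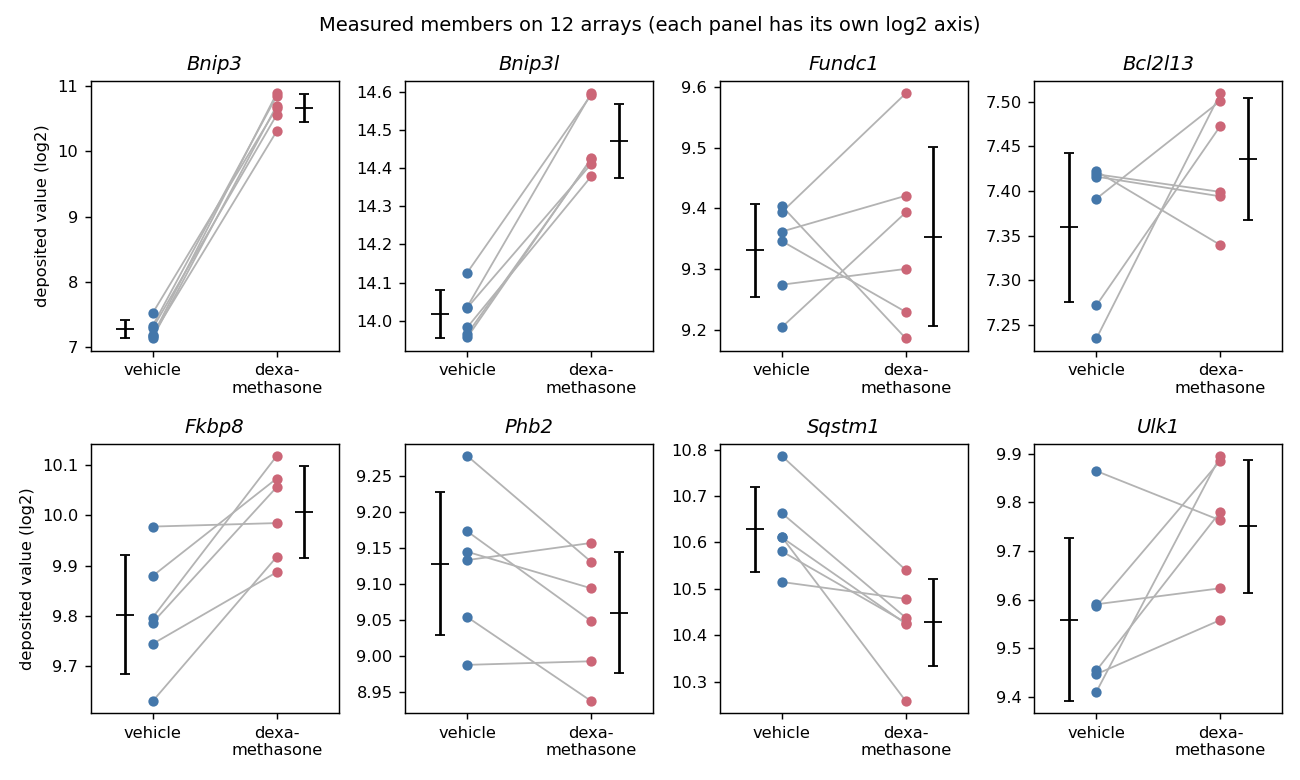
Deposited log2 values of the 8 measured genes (vertical axes, a separate range per panel) on the 6 vehicle arrays (blue) and the 6 dexamethasone arrays (red). Grey lines join the arrays of 1 culture and black marks give the mean with its SD. Bnip3 goes from 7.28 to 10.66 and Bnip3l from 14.02 to 14.47 without overlap, while the groups overlap in the other panels.

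Besides Bnip3, 2 of the 7 measured genes were called higher (Bnip3l and Fkbp8), 1 lower (Sqstm1), and 4 did not pass the threshold. Over all tested genes 12.0% were called, 7.39% higher and 4.56% lower. The median change of the 7 was 0.08, against -0.01 for all tested genes. The calls of Fkbp8 and Sqstm1 each ended under several other settings.

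Among the other outer membrane receptors, Fkbp8 rose slightly. It encodes an immunophilin anchored in that membrane that binds LC3 and BCL2. Its vehicle arrays ran from 9.63 with a median of 9.79 to 9.98, and its dexamethasone arrays from 9.89 with a median of 10.02 to 10.12. The groups overlap, because vehicle culture 1 was as high as the lower dexamethasone arrays, and in that culture the difference was 0.01 against 0.14 to 0.32 in the other cultures. The mean difference was 0.20 with an SE of 0.05, higher in 6 of 6 cultures (adjusted p = 0.0391). The call ended under 11 of 18 other settings, among them the fit without the replicate block (0.054), quantile normalization (0.0794) and leaving out culture 2, 3, 4, 5 or 6 in turn (0.0672 to 0.115, with changes from 0.18 to 0.22).

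Fundc1, whose product recruits LC3 to mitochondria in hypoxia, did not pass. Its vehicle arrays ran from 9.20 with a median of 9.35 to 9.40 and its dexamethasone arrays from 9.19 with a median of 9.35 to 9.59. It was higher in 4 cultures and lower in 2, and the mean difference of 0.02 had a 95% interval from -0.12 to 0.17 (adjusted p = 0.853). Bcl2l13, a BCL2 relative regarded as the mammalian counterpart of the yeast receptor Atg32, ran from 7.24 with a median of 7.40 to 7.42 in vehicle and from 7.34 with a median of 7.44 to 7.51 in dexamethasone. It was higher in 3 cultures and lower in 3, with a difference of 0.08 and an interval from -0.06 to 0.21 (adjusted p = 0.439). The intervals leave out a change of the size seen for Bnip3l in either gene.

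Phb2, a prohibitin of the inner membrane that becomes reachable for LC3 once the outer membrane is broken, read 8.99 to 9.28 with a median of 9.14 in vehicle and 8.94 to 9.16 with a median of 9.07 in dexamethasone. The groups overlap almost completely. The difference was -0.07 with an interval from -0.17 to 0.03 (adjusted p = 0.364), lower in 4 of 6 cultures.

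On the ubiquitin side, Sqstm1, which encodes the adaptor p62, fell. Vehicle arrays ran from 10.51 with a median of 10.61 to 10.79 and dexamethasone arrays from 10.26 with a median of 10.43 to 10.54. The groups overlap in a narrow band, since the lowest vehicle value, of culture 4, is below the highest dexamethasone value, of culture 3. It fell by 0.20 with an SE of 0.05, in 6 of 6 cultures by 0.04 to 0.35 (adjusted p = 0.0351). Leaving out culture 1, 2, 3, 5 or 6 in turn ended the call (0.0633 to 0.0991, with changes from -0.21 to -0.17), as did centring on array medians (0.069).

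Ulk1, the kinase that starts autophagy and phosphorylates several of these receptors, was 9.41 to 9.86 with a median of 9.52 in vehicle and 9.56 to 9.90 with a median of 9.77 in dexamethasone. Vehicle culture 1 stood high at 9.86, and in that culture alone the dexamethasone value was lower, by 0.10. The mean difference of 0.19 (SE 0.08) did not pass, with an adjusted p of 0.151, and 18 other settings gave 0.0739 to 0.553.

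**Figure D2:**
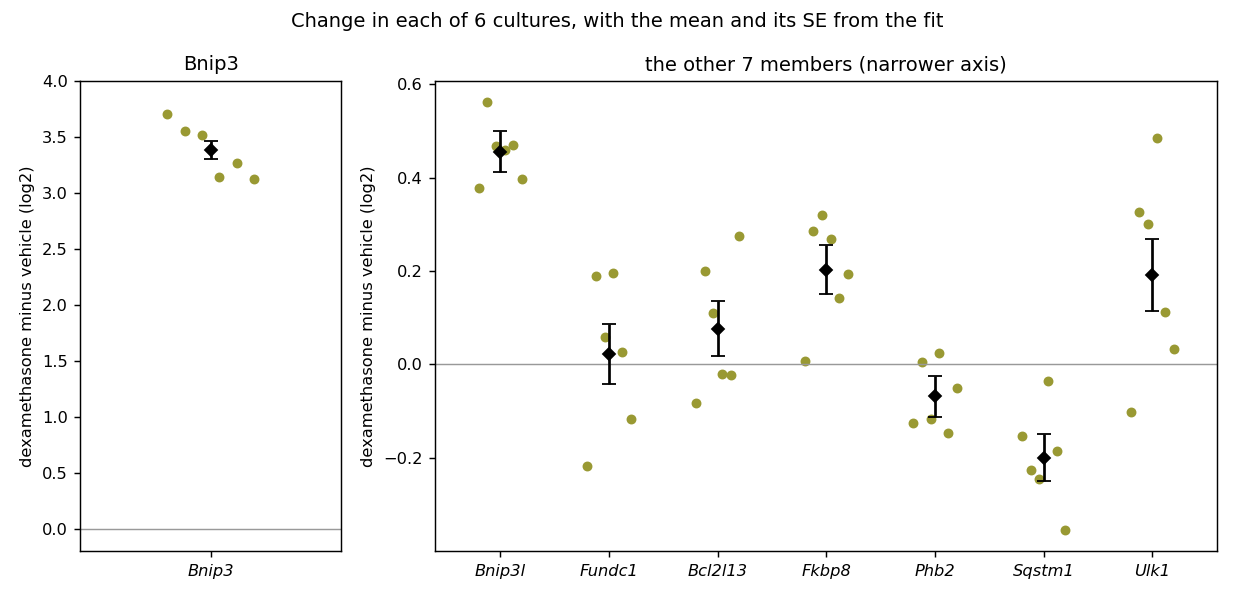
Dexamethasone minus vehicle (log2) in each of the 6 cultures (points, culture 1 to 6 from left to right within a gene), with the mean and its SE from the fit (black diamonds and bars). Bnip3 has its own wider axis, from 3.12 to 3.71, and the changes of the other 7 genes lie between -0.35 and 0.56.

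Genes whose pattern was most like that of Bnip3 included classical glucocorticoid targets such as Tsc22d3 (GILZ) and Fkbp5. Over the 12 arrays, the 5 genes with the highest Pearson correlation with Bnip3 were Tsc22d3 (r = 0.999), Fkbp5 (0.998), Pfkfb3 (0.998), Gm16439 (0.997) and Rasd1 (0.997). All 5 differed strongly between treatments, by 2.37 to 5.46, and a gene with a large difference correlates in this way by that alone. When the mean of each treatment was taken off, the highest were Fkbp5 (0.923), Mir3103 (0.919), Clip1 (0.902), Tmem158 (0.886) and Exd1 (0.877), of which Mir3103 was below the control median on all arrays. On that scale the other mitophagy genes lay between -0.21 for Phb2 and 0.38 for Sqstm1, with Bnip3l at 0.29. These correlations describe 12 arrays that share cultures and array scaling. In each case the 5 genes were picked as the highest among all tested genes outside the group. High values can arise from that choice alone, and none was tested.

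The wider pathway was read through 11 lists with 200 distinct tested genes, of which 31 were called higher and 18 lower, together 24.5% against 12.0% of all tested genes. The lists were written with earlier results of these arrays known, and no list was tested as a set. After quantile normalization 36 of these genes were called lower. The shares may also cover genes of unlike brightness. Testing kept genes down to the array's 25th percentile, which is below the control median. All 35 autophagy core genes and 24 of 32 HIF pathway genes lay above that median on all 12 arrays. The effect of brightness on the shares was not tested.

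**Figure D3:**
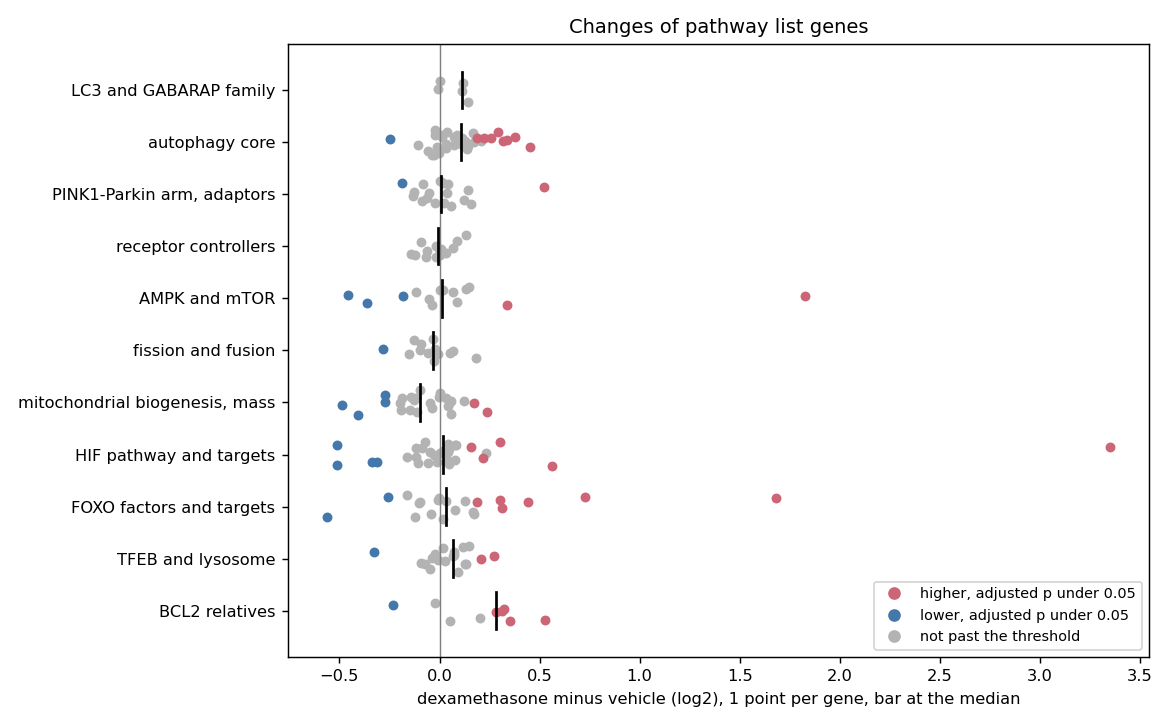
Dexamethasone minus vehicle (log2, horizontal axis) for each tested gene of the 11 lists (vertical axis), with a black bar at the list's median. Red and blue points passed the threshold as higher or lower and grey points did not; the 2 points beyond 1.7 are Pfkfb3 at 3.35 and Ddit4 at 1.83.

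Of 35 autophagy core genes 8 rose, 1 fell and 26 did not pass, with a median change of 0.11. The share called was 25.7%, against 12.0% of all tested genes. By step, 3 of the rises were in the initiation complex around ULK1, 2 in the lipid kinase complexes, 2 in the membrane proteins and 1 in fusion. The partners of ULK1 in the initiation kinase complex rose, namely the scaffold Rb1cc1 (FIP200) by 0.19, Atg13 by 0.29 and Atg101 by 0.38, with adjusted p of 0.0168, 0.0135 and 0.0098, each in 6 of 6 cultures. Ulk2, the second kinase, differed by 0.13 (adjusted p = 0.152). In the lipid kinase complexes that make phosphatidylinositol 3-phosphate, the subunits that give each complex its place rose, Atg14 by 0.32 and Uvrag by 0.33. The shared subunits did not pass, with Becn1 at -0.04 (adjusted p = 0.741).

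Wipi1, which reads phosphatidylinositol 3-phosphate on the forming membrane, had the largest rise of the core list, from 9.07 ± 0.12 to 9.53 ± 0.16 (SD, n = 6), by 0.45 (adjusted p = 0.000454). The membrane protein Atg9a rose by 0.22. Among genes of fusion with lysosomes, Snap29 rose by 0.26 and the tethering factor Epg5 fell by 0.25. None of the 11 genes of the conjugation machinery passed, whose median change was 0.03. Leaving out 1 culture ended the calls of Rb1cc1 (culture 3, adjusted p = 0.0556), Snap29 (culture 4, 0.0506), Atg9a (culture 1, 2, 3 or 4, 0.0907 to 0.111) and Epg5 (culture 1, 4, 5 or 6, 0.0656 to 0.073). After quantile normalization 5 genes of the list were called higher and 2 lower, and with all probe sets in the fit 2 and 0. Without cultures 2 and 3 together 2 were higher and 1 lower, and the calls of Atg13, Atg101, Atg14 and Uvrag ended (0.0785, 0.106, 0.0535 and 0.0737).

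The LC3 and GABARAP proteins, to which all receptors bind, did not pass in any of 5 genes. Map1lc3b differed by 0.11 (adjusted p = 0.118) and was higher in 6 of 6 cultures, with groups that did not overlap. Gabarap differed by 0.14 with an adjusted p of 0.0588, and passed in 4 of 18 other settings (lowest 0.0294). Gabarapl1, a FOXO target, differed by -0.01 with an adjusted p of 0.956.

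**Figure D4:**
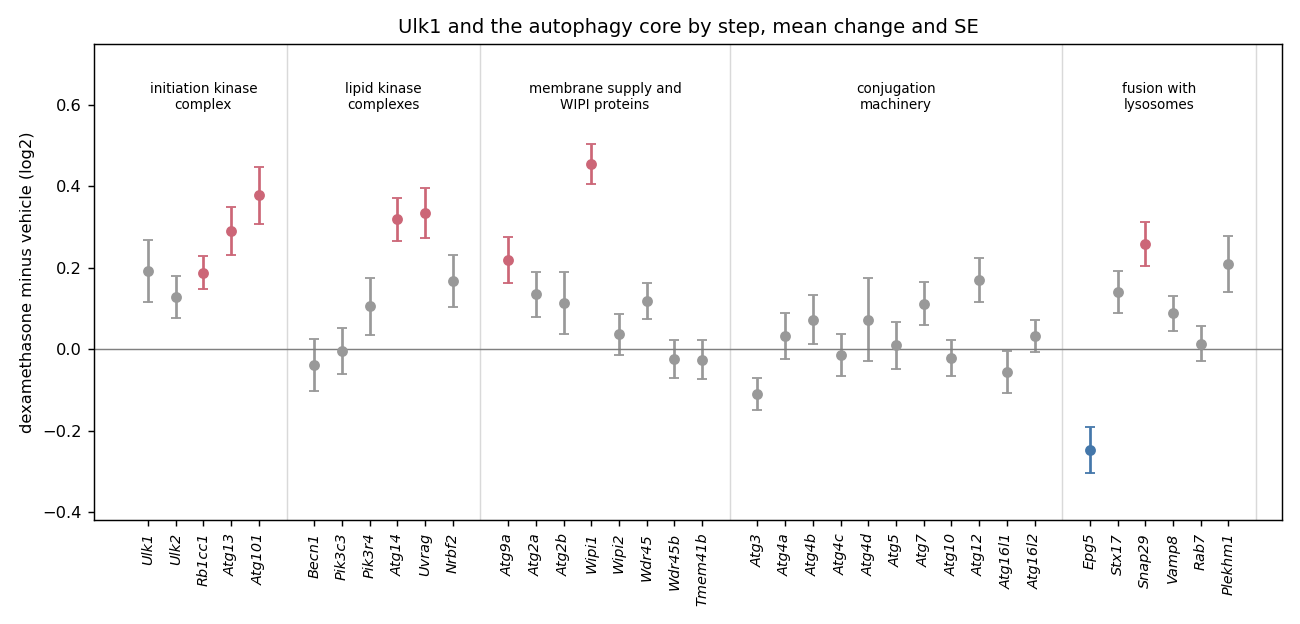
Mean change and SE (log2, vertical axis) of Ulk1 and the 35 autophagy core genes, ordered by step along the horizontal axis. Red genes were called higher, the blue gene lower and grey genes were not called; 3 of 4 listed partners of Ulk1 rose and none of the 11 conjugation genes passed.

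In the ubiquitin arm and its adaptors 1 of 18 tested genes rose, 1 fell and 16 did not pass. The share called was 11.1%, near the 12.0% of all tested genes. Tollip, an adaptor protein of endosomes and selective autophagy, rose from 10.37 ± 0.11 to 10.89 ± 0.16, by 0.52 (adjusted p = 0.00199). Parl, the inner membrane protease that cleaves PINK1, fell by 0.19 (adjusted p = 0.0327), a call that ended when any 1 culture was left out (0.0539 to 0.0802). After quantile normalization 4 genes of this list were called lower. Parkin has no value here.

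Regulators of the receptors themselves showed no call among 14 genes by limma, where quantile normalization called 2 lower, Src and Rheb, the latter a GTPase that binds BNIP3. The ligase subunit Fbxl4 and the phosphatase Pptc7, which together keep BNIP3 and NIX protein low, differed by -0.02 and 0.07 (adjusted p = 0.829 and 0.449).

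Among AMPK and mTOR genes and their regulators, which act upstream of ULK1, 2 of 14 tested genes rose and 3 fell. Called genes made up 35.7%, against 12.0% of all tested genes. Ddit4, a restraint on mTORC1, rose by 1.83 (adjusted p = 3.46e-07), and Deptor, which binds mTOR, rose by 0.34 but lay above the control median on 3 of 12 arrays. The AMPK subunits Prkab2 and Prkaa2 fell by 0.46 and 0.36, in 6 of 6 cultures each (adjusted p = 0.00183 and 0.0109). The other listed subunits did not pass, with Prkaa1 at 0.07, Prkab1 at 0.15, Prkag1 at 0.13 and Prkag2 at -0.12. In vehicle Prkaa1 was brighter than Prkaa2, the other catalytic subunit, at 10.43 against 7.91. Tsc1 fell by 0.18 (adjusted p = 0.0411), a call that ended without the replicate block (0.0764), after centring (0.116) and without culture 1, 2, 4, 5 or 6 (0.062 to 0.103).

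BCL2 relatives, some of which bind BNIP3, gave 5 rises and 1 fall among 9 tested genes, while 3 did not pass. Of the 9, 66.7% were called, against 12.0% of all tested genes. The counts were the same after quantile normalization and after centring, 3 and 0 with all probe sets in the fit, and 2 and 0 without cultures 2 and 3. The survival proteins Bcl2, Bcl2l1 and Mcl1 rose by 0.32, 0.35 and 0.28, and so did Pmaip1 (NOXA), which binds and neutralizes MCL1, by 0.52 and the pore-forming effector Bak1 by 0.31. Bid, which activates the effectors, fell by 0.23. The call of Bak1 ended without culture 2 or 4 (adjusted p = 0.0531 and 0.0539).

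Among genes that shape mitochondria, Opa1, the fusion GTPase of the inner membrane, fell from 11.10 ± 0.09 to 10.82 ± 0.07, by 0.28 (adjusted p = 0.00335), and the other 13 fission and fusion genes tested did not pass. Called genes were 7.14% of this list, against 12.0% of all tested genes. Quantile normalization called 5 of the 14 lower, Opa1 included, among them the fission GTPase Dnm1l, which as deposited differed by -0.10 (adjusted p = 0.187). Of 25 genes of mitochondrial biogenesis and mass 2 rose and 4 fell, so 24% were called, against 12.0% of all tested genes. The matrix chaperones Hspd1 and Hspa9 fell by 0.49 and 0.41 (adjusted p = 0.000137 and 0.000314), and Tfb1m and Tfb2m by 0.27 each. Polg2 rose by 0.24, and Tomm22, an import receptor, by 0.17.

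In this biogenesis list quantile normalization called 11 lower and 1 higher. The call of Tomm22 ended when any 1 culture was left out (0.0502 to 0.126), that of Tfb2m without culture 1, 3, 4, 5 or 6 (0.0737 to 0.102) and that of Tfb1m without culture 4 or 5 (0.0561 to 0.0707). Without the replicate block Tomm22 and Tfb1m did not pass either (0.0546 and 0.0788). Ppargc1a, the master coactivator of biogenesis, was 4.97 ± 0.12 and 4.85 ± 0.14, below the control median on all arrays.

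In RNA, the genes of the factors known to drive Bnip3 did not pass, and the activity of their proteins was not measured. The part of these factors in the Bnip3 difference was not tested. Hif1a was 10.34 ± 0.07 in vehicle and 10.18 ± 0.08 in dexamethasone, lower in 6 of 6 cultures without overlap, with a difference of -0.16 (adjusted p = 0.0628) that passed in 5 of 18 other settings, with the lowest adjusted p after quantile normalization (0.00746). Epas1, its relative, lay below the control median on all arrays. Foxo3 differed by 0.13 (adjusted p = 0.116) and Foxo1 by 0.02 (0.902). Nr3c1 encodes the receptor for dexamethasone. The Nr3c1 change was -0.17 (adjusted p = 0.0527), and it passed in 7 of 18 other settings, without the replicate block (0.0261) and after quantile normalization among them (lowest 0.014).

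Of 31 tested HIF pathway genes 5 rose, 4 fell and 22 did not pass, with a median change of 0.02 that was 0.00 after quantile normalization. The share called was 29.0%, against 12.0% of all tested genes. The glycolytic regulator Pfkfb3 rose by 3.35 (adjusted p = 3.09e-08) and its relative Pfkfb4 by 0.56. Higd1a and Vegfa rose by 0.22 and 0.16, and Hif3a by 0.30 while below the control median on all arrays. Egln3 fell by 0.51, Hk2 by 0.51, Bhlhe40 by 0.34 and P4ha1 by 0.31. Hk2 lay above the control median on 11 of 12 arrays. The 22 genes that did not pass include Pdk1 at -0.01 (adjusted p = 0.9), Ldha at 0.04 (0.566) and Ankrd37 at -0.12 (0.24). The call of Vegfa ended when any 1 culture was left out (0.0725 to 0.131) or without the replicate block (0.151), and that of Higd1a without culture 3 or 4 (0.0544 to 0.0567) or without the replicate block (0.113).

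Of 21 tested FOXO factors and targets 6 rose, 2 fell and 13 did not pass, and without cultures 2 and 3 the counts were 3 and 2. Called genes in the main fit made up 38.1%, against 12.0% of all tested genes. The growth arrest gene Gadd45a rose by 1.68 (adjusted p = 9.83e-07), Pik3ip1, an inhibitor of PI3 kinase, by 0.73, and the ubiquitin ligase Fbxo32 (atrogin-1) by 0.44. Pik3ip1 was dim, with a vehicle mean of 6.23, and lay above the control median on 10 of 12 arrays. Ccng2 and the repressor Bcl6 rose by 0.31 and 0.30. Cited2 rose by 0.19, a call that ended without culture 1, 2, 3, 4 or 5 (0.0613 to 0.132) and without the replicate block (0.0878). Sesn1 fell by 0.56 and the death gene Bcl2l11 (BIM) by 0.26, in 6 of 6 cultures each. The list's median was 0.03, turned to -0.02 by quantile normalization and to 0.05 by centring.

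**Figure D5:**
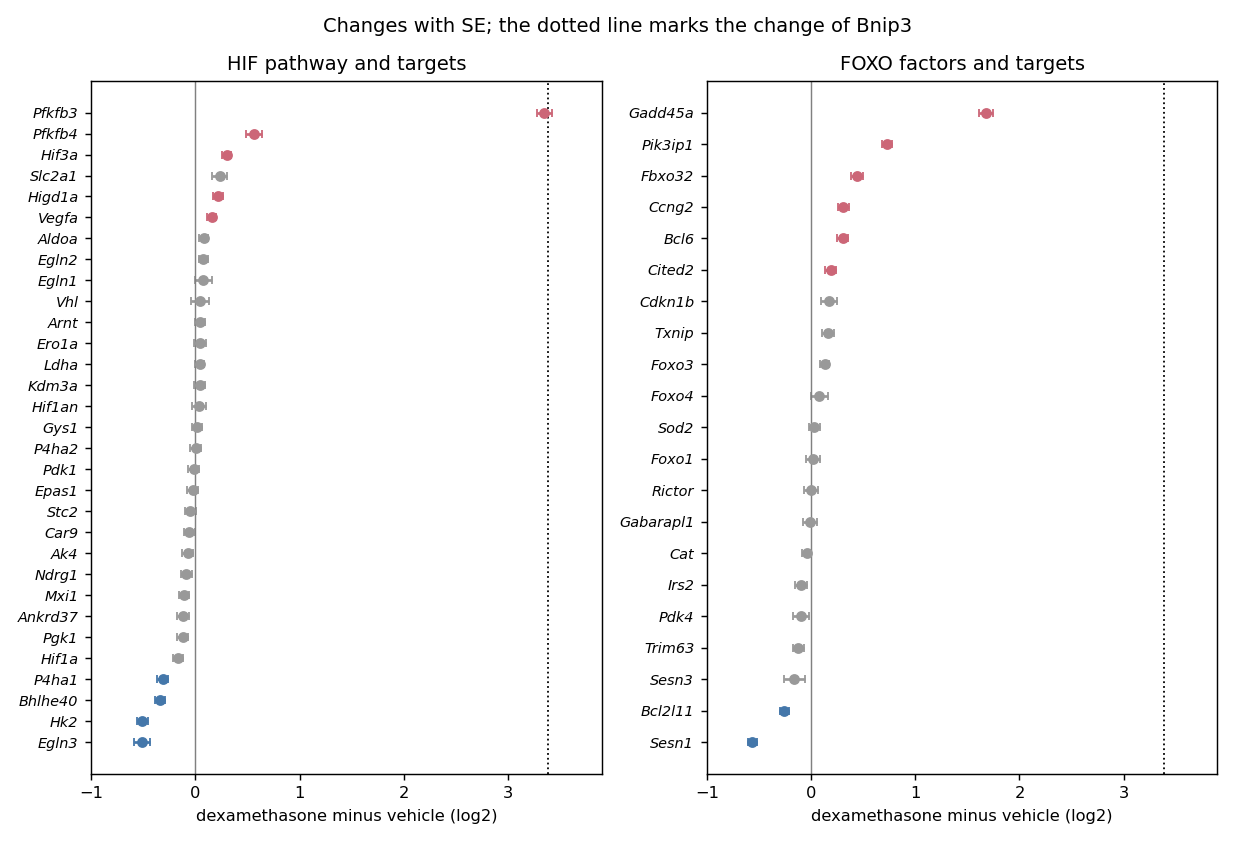
Mean change and SE (log2, horizontal axes) of the tested genes of the HIF and FOXO lists (vertical axes, ordered by change), red for genes called higher, blue for lower and grey for neither. The dotted line marks the Bnip3 difference of 3.38, which Pfkfb3 alone of these genes approaches, at 3.35.

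Lysosomal genes are needed to digest the mitochondria once enclosed. With TFEB, its relatives and its regulators they gave 2 rises and 1 fall among 19, and none without cultures 2 and 3. In the main fit 15.8% were called, against 12.0% of all tested genes. Flcn, which restrains TFEB, rose by 0.27 (adjusted p = 0.00682), the protease Ctsl by 0.21 and the proton pump subunit Atp6v1h fell by 0.33 (adjusted p = 0.00632). The call of Ctsl ended when any 1 culture was left out (0.0513 to 0.0739) and without the replicate block (0.337). Tfeb itself lay below the control median on all arrays.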

How the data were processed

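RNA of 6 cultures under both treatments was amplified, tagged with biotin and measured on 12 arrays, per the labels' protocols. The deposited values are log2 values for 72688 probe sets per array, from 2.07 to 19.93. The authors' background correction, normalization and summary steps are, in the sources used here, not given, and only the range of the values shows the scale. They were used as deposited.

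Of 30604 probe sets with 1 symbol, 22818 had a gene number in RefSeq (GRCm38.p6), which updated 827 symbols. Testing kept the 24265 genes found above the array's 25th percentile on 6 or more of 12 arrays. Treatments were compared with lmFit and eBayes of limma 3.58.1 (R 4.3.3, two-sided), tested on simulated data. Culture was a block because the treatment protocol states that cultures were divided. Deviations from group means correlated between arrays of 1 number with r from 0.0493 to 0.247, and over 0.1 in 4 of 6 pairs.

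The genes and lists were chosen with earlier results of these data known. Named are the members, up to 6 called genes per list by size, 14 genes fixed by name and the 5 most like Bnip3. Rb1cc1, Atg9a, Epg5, Hif3a, Higd1a, Vegfa, Bcl2l11, Cited2, Pdk1, Ldha, Ankrd37, Ulk2, Src, Rheb, Gabarap and the cell markers were named after their values were seen. So were the AMPK subunits that did not pass. Alternatives concerned the block, scaling, filters, floor, moderation, probe sets and cultures left out.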

Additional observations from a re-analysis of the deposited data

How the results depend on the processing

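The difference of Bnip3, the rise of Bnip3l and the missing calls of Fundc1, Bcl2l13, Phb2 and Ulk1 held under 18 other settings, whereas the calls of Fkbp8 and Sqstm1 ended under 11 and 8 of them. The number of genes past the threshold (2900 as deposited, 1794 higher and 1106 lower), members other than Bnip3 past it (3) and list genes (31 higher and 18 lower) moved as follows. After quantile normalization 1738 genes and 36 list genes were lower, and higher genes were 44.9% of calls against 61.9% as deposited. After centring on array medians 726 genes were lower, 70.3% of calls were higher, and 1 member passed. With all probe sets in 1 fit and adjusted together, 1208 genes (805 higher, 403 lower), 1 member and 17 and 11 list genes passed. Leaving out 1 culture at a time gave 1876 to 2334 genes (1163 to 1520 higher, 711 to 853 lower), the fewest in all without culture 3, and 1 to 2 members. Without cultures 2 and 3, a setting added after seeing the data, 1270 genes (732 and 538), 1 member and 14 higher list genes passed. Without the replicate block the count was 2452, and among the members only the call of Fkbp8 ended (adjusted p = 0.054); beside the genes given with the results, it changed no other call of a named pathway gene, while neutrophil markers called lower went from 4 to 1. The cause of these shifts was not tested, except that fewer arrays or more features raise adjusted p-values by construction. Signal near the negative controls limits Tfeb, Epas1 and Ppargc1a, where a change may not show. Such signal also limits the calls of Hif3a, Deptor, Pik3ip1 and Hk2, which were not above the control median on every array.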
